A study of Mus musculus with 16 samples.

Results

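Synj2, Kif3c, Kif7, Flrt1, Arhgap27 and Rreb1 are the 6 mouse genes described here. Their measured RNA difference between estradiol (E2, the main natural estrogen) and vehicle was higher in aorta than in liver. They are 6 of the 24011 genes in the deposited table, and all 6 had enough counts to be fitted in both tissues. They were chosen from the measured values: in each, the difference between E2 and vehicle was higher in aorta than in liver under every one of the 4 library suffixes described below. That criterion alone is met by 968 of the 14190 genes fitted over both tissues, or 6.82%. Among these 968, the gene with the smallest margin was Scube3, whose aorta effect exceeded the liver effect by 0.00018 log2 units under n1, and the nearest gene outside was Amh, with a difference of 0 under o1. The 6 genes lay well inside. Their smallest margin was 0.33, for Kif3c under n1. The values that chose the genes are given below as descriptions, with no test.

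The tissue came from female C57BL/6 wild-type mice that had been ovariectomized at 6 to 7 weeks of age whose tissue was taken 1 week after surgery, so every group, controls included, lacked ovarian estrogen. Aortas and fragments from the tip of the largest liver lobe were incubated ex vivo for 4 h, with E2 at 10 nM or with ethanol as vehicle. RNA sequencing gave 4 groups of 4 libraries: aorta with vehicle, aorta with E2, liver with vehicle and liver with E2. Each column of the table carries a suffix, o1, o2, n1 or n2, that no label explains. Per the labels, 8 libraries were prepared with the Ovation system (50 ng of RNA) and 8 with a TruSeq kit after poly-A selection (600 ng). The latter came from a single aorta or liver fragment each, while the series text speaks of 4 mice per replicate. No source used here says whether o and n stand for these kits. The tissue was an intact explant with several cell types, so fewer cells of a type and less RNA per cell cannot be told apart. P-values measure the spread between these libraries.

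Gene counts per library ran from 3896733, in liver with E2 n2, to 19823982. Levels of smooth muscle and hepatocyte markers separated the tissues. The summed level of 8 smooth muscle markers was 10442 to 28652 CPM (counts scaled to 1e6 per library) in aorta and 187 to 465 CPM in liver, and that of 8 hepatocyte markers was 62.5 to 620 CPM in aorta and 72109.8 to 179379 CPM in liver. The summed level of 7 lymphocyte markers reached 147 CPM in 1 aorta library with vehicle, where the lowest was 6.64 and the median 20.8 CPM. It was 9.96 to 14.0 CPM in aorta with E2. Liver libraries of type o gave 25.7% to 34.5% of their counts to Rn45s (precursor of ribosomal RNA), and no other library more than 6.20%. Some markers moved with E2, though none was called: in aorta all 7 lymphocyte markers tested (median log2 effect −2.37) and all 7 hepatocyte markers tested (−0.84) were lower, and in liver all 7 macrophage markers (−0.41) and all 6 vascular endothelium markers (−0.33). The difference between the tissues' E2 effects was above 0 for all 6 endothelium markers (median 0.35). It was below 0 for all 8 hepatocyte markers (−1.06) and for 6 of 7 lymphocyte markers (−1.32). The part of these shifts in the results below was not tested.

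Estradiol acts largely through the estrogen receptors, which are transcription factors that bind DNA at estrogen response elements or through other factors already on the DNA. Liver and vessel wall both carry estrogen receptor alpha, and the genes it controls differ widely between tissues. The 6 genes belong to no single pathway. Synj2 encodes synaptojanin 2, a phosphatase that removes phosphates from membrane phosphoinositides during endocytosis. Kif3c and Kif7 encode kinesins: Kif3c is a motor that carries cargo along microtubules, and Kif7 sits at the tip of the primary cilium, where it regulates Hedgehog signalling. Flrt1 encodes a leucine-rich transmembrane protein that binds fibroblast growth factor receptors, Unc5 receptors and latrophilins. Arhgap27 encodes a GTPase-activating protein, which switches off small GTPases. Rreb1 encodes a zinc finger transcription factor that binds Ras-responsive elements.

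The genes lie on 6 chromosomes, by the GENCODE annotation of build GRCm38, a later build than the mm9 used for the counts. Synj2 spans chr17:5941280-6044290 on the plus strand, Kif3c chr12:3365132-3406494 on the plus strand and Kif7 chr7:79698098-79715720 on the minus strand. Flrt1 spans chr19:7092001-7105729 and Arhgap27 chr11:103331497-103363692, both on the minus strand, and Rreb1 spans chr13:37778400-37952005 on the plus strand. Flrt1 lies inside Macrod1, which is transcribed from the opposite strand and shares 0 exonic bases with it. Because the strand setting of the counting is not known, reads of opposite-strand partners cannot be told apart where exons overlap. Kif3c shares 2617 exonic bases with 1110002L01Rik and 588 with Gm48512, Arhgap27 shares 1055 with Arhgap27os2 and 424 with Arhgap27os1, Kif7 shares 877 with 9330171B17Rik and 51 with Ticrr, and Synj2 shares 297 with Serac1. The partner with the widest overlap, 1110002L01Rik, itself had 0 to 5 counts in any library.

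The DNA just upstream of the starts of the 6 genes was read from RefSeq (GRCm38.p6), which gives 10 promoter windows for 5 of the genes. The upstream runs of 4 genes are shown 5′ to 3′ on the gene's strand, without bases that an exon of any annotated gene covers. Capitals mark matches to the motifs searched. Kif3c, Kif7 and Rreb1 are shown for their matches, and Synj2 as the gene with the largest difference in level between tissues, which had none. Like that of Synj2, the Rreb1 window shown lies at a start site inside the gene span given above.
Kif3c, chr12:3364882-3365131, plus strand: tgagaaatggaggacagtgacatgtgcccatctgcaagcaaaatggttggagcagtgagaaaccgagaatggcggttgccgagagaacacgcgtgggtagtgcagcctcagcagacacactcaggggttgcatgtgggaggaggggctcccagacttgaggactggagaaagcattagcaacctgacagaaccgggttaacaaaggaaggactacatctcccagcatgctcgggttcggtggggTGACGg
Kif7, chr7:79715721-79715957, minus strand: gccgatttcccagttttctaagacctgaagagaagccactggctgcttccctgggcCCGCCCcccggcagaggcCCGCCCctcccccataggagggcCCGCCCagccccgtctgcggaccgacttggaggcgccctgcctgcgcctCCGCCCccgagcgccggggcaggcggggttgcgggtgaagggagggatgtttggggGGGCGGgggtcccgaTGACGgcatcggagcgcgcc
Rreb1, chr13:37825788-37825974, plus strand: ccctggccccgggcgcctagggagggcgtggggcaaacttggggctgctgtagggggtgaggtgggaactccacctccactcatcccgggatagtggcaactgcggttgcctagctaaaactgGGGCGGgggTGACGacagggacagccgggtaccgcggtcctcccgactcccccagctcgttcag
Synj2, chr17:5975330-5975579, plus strand, at a start site inside the longest gene model: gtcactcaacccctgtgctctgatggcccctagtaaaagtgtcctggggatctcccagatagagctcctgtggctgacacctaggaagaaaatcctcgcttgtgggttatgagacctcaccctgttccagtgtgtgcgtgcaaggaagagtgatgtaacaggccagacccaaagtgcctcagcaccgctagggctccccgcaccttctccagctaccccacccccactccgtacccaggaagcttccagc

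A set of 6 motifs was searched on both strands in the 250 bases before each start. The full estrogen response element, GGTCA and TGACC separated by 3 bases, was in the windows of 0 of the 5 genes, against 0.0666% of the 27025 genes with a RefSeq window. Its single arm AGGTCA was in 0 of 5, against 15.8% of genes, and the AP-1 site TGANTCA was in 0 of 5, against 7.82%. The Sp1 site GGGCGG was found for Kif7 and Rreb1 and in 35.4% of all genes. The TGACG core of the cyclic AMP response element was found for Kif3c, Kif7 and Rreb1 and in 19.8% of all genes. The E-box CACGTG was found for Arhgap27 and Rreb1 and in 6.86% of all genes; its matches lie outside the runs printed here. These shares are by gene, and a gene with more windows can match more easily. By window, the Sp1 site was in 3 of 10, against 32.7% of all 32851 windows. TGACG was in 3 of 10, against 17.8%, and the E-box in 2 of 10, against 6.02%. A match describes letters in the window only.

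Synj2 was by far the most abundant of the 6 in aorta. Per kilobase of its longest transcript, its level in aorta with vehicle was 40.2 ± 11.2 CPM (SD, n = 4), against 3.44 ± 0.874 for Rreb1, 2.09 ± 0.961 for Kif3c, 1.26 ± 0.801 for Kif7, 0.808 ± 0.625 for Arhgap27 and 0.609 ± 0.444 for Flrt1. From Kif3c down, the means of neighbours in that order differed by less than the larger of their SDs. In liver with vehicle Rreb1 led, at 12.2 ± 3.72 CPM per kilobase, followed by Synj2 at 3.39 ± 0.901. The other 4 genes lay together between 1.10 and 1.31 CPM per kilobase.

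**Figure D1:**
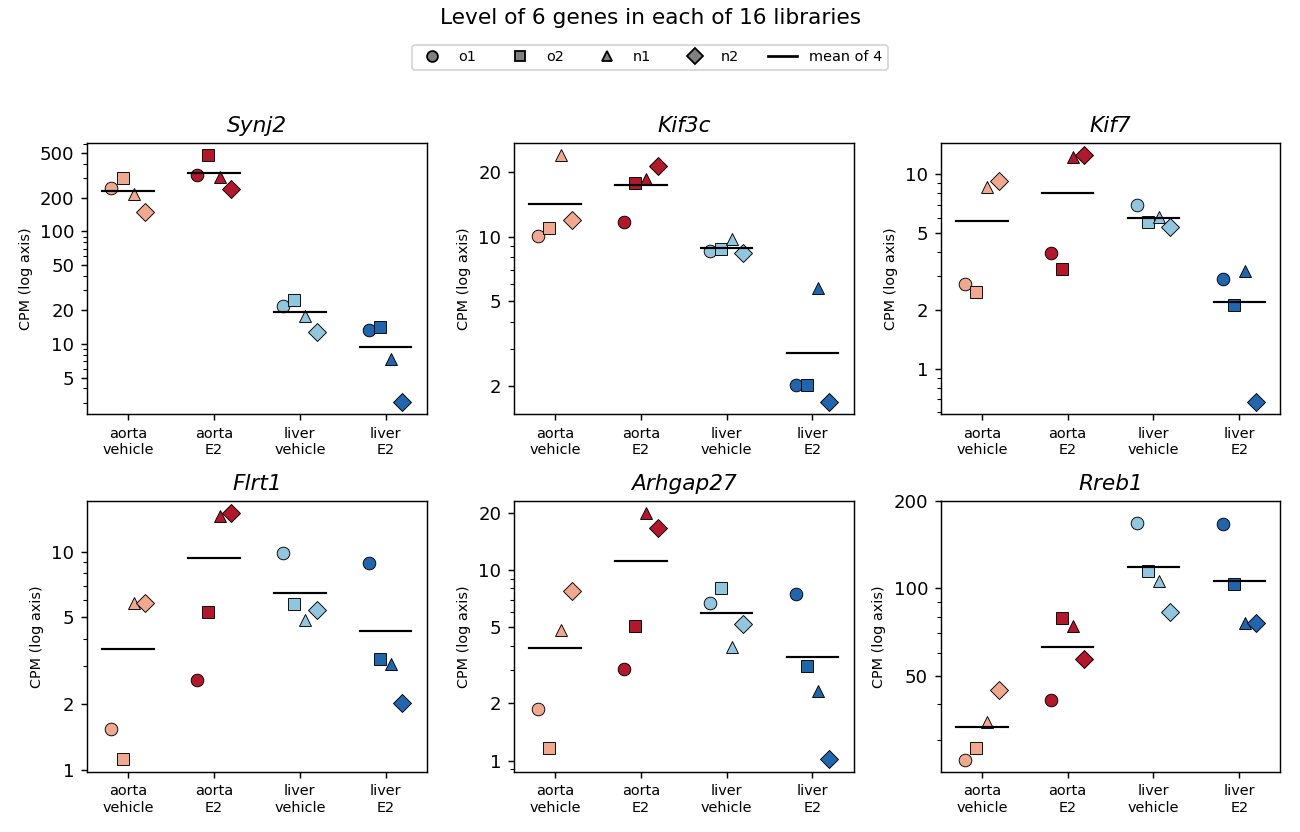
CPM on a log axis for each of the 6 genes in the 16 libraries, grouped by tissue and treatment, with a symbol for each suffix and a line at the mean of 4. Synj2 is at 149 CPM or more in every aorta library and at 24.5 CPM or less in every liver library, while the triangles and diamonds (n) of Kif7, Flrt1 and Arhgap27 stand above the circles and squares (o) in aorta.

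Synj2, the phosphoinositide phosphatase, stood at 242, 301, 217 and 149 CPM in aorta with vehicle (suffixes o1, o2, n1 and n2, the order used throughout) and at 315, 474, 303 and 238 CPM with E2. In liver it stood at 21.9, 24.5, 17.6 and 12.8 CPM with vehicle and at 13.3, 14.2, 7.33 and 3.04 CPM with E2. The E2 library was above its vehicle library of the same suffix in all 4 aorta comparisons and below it in all 4 liver comparisons, although the groups overlapped in both tissues. The mean with E2 was 1.46 times the vehicle mean in aorta, and the vehicle mean was 2.03 times the E2 mean in liver. Fitted with edgeR, the log2 effect of E2 was 0.53 ± 0.18 (SE, n = 4 per group, as for all such effects below) in aorta and −1.10 ± 0.33 in liver. By suffix, its aorta difference had an SD of 0.14, the smallest of the 6 genes after the 0.07 of Kif7.

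Kif3c, the cargo motor, stood at 10.0, 11.0, 23.9 and 11.9 CPM in aorta with vehicle and at 11.6, 17.8, 18.6 and 21.3 CPM with E2. In liver it stood at 8.54, 8.74, 9.76 and 8.39 CPM with vehicle and at 2.02, 2.02, 5.74 and 1.69 CPM with E2. In liver every E2 library was below every vehicle library, which held for 0.317% of the 14190 genes, and the fitted effect was −1.62 ± 0.45, with 6 of the 11726 genes tested in liver lower. The label of opposed effects holds less well in aorta, where the E2 library was higher under o1, o2 and n2 but lower by 0.35 log2 units under n1. The aorta effect was 0.29 ± 0.24. It was 0.60 without the vehicle library n1 and 0.14 without the vehicle library n2.

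Kif7, the ciliary kinesin of Hedgehog signalling, stood at 2.72, 2.48, 8.61 and 9.25 CPM in aorta with vehicle and at 3.93, 3.27, 12.4 and 12.5 CPM with E2. The aorta groups overlapped because the n libraries were high in both, but the difference by suffix was even, between 0.30 and 0.48 log2 units. In liver Kif7 stood at 6.94, 5.69, 6.01 and 5.38 CPM with vehicle and at 2.88, 2.12, 3.18 and 0.676 CPM with E2, again with every E2 library below every vehicle library. Fitted effects were 0.45 ± 0.21 in aorta and −1.38 ± 0.48 in liver. The lowest liver value rested on 2 counts, and without that library the liver effect was −1.15.

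Flrt1, the receptor-binding membrane protein, stood at 1.53, 1.12, 5.86 and 5.80 CPM in aorta with vehicle and at 2.57, 5.33, 14.6 and 15.1 CPM with E2. In liver it stood at 9.87, 5.79, 4.88 and 5.38 CPM with vehicle and at 8.93, 3.24, 3.06 and 2.03 CPM with E2. The direction was opposed under every suffix, and on the log2(CPM + 1) scale the aorta effect exceeded the liver effect by 0.63 to 2.32. Fitted effects were 1.45 ± 0.28 in aorta, with 26 of 13698 genes higher, and −0.72 ± 0.41 in liver. Macrod1, the gene around it, had an E2 effect of 0.01 ± 0.21 in aorta and 0.60 ± 0.24 in liver.

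Arhgap27, the GTPase-activating protein, stood at 1.87, 1.16, 4.82 and 7.76 CPM in aorta with vehicle and at 3.03, 5.07, 19.9 and 16.6 CPM with E2. In liver it stood at 6.67, 8.03, 3.94 and 5.23 CPM with vehicle and at 7.49, 3.14, 2.32 and 1.01 CPM with E2. Its aorta effect was the largest of the 6 genes, at 1.52 ± 0.30, with 21 of 13698 genes higher. In liver the effect was −0.96 ± 0.47, but under o1 the E2 library was the higher one, by 0.15 log2 units, so that the effects were not opposed in that suffix.

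Rreb1, the zinc finger transcription factor, stood at 25.7, 28.3, 34.6 and 44.8 CPM in aorta with vehicle and at 41.3, 78.8, 74.0 and 57.2 CPM with E2. In liver it stood at 168, 115, 106 and 82.8 CPM with vehicle and at 167, 104, 75.9 and 76.1 CPM with E2. The aorta groups overlapped only by the vehicle library n2 and the E2 library o1, and the fitted effect was 0.89 ± 0.21. In liver the effect was −0.19 ± 0.19, with 3423 of 11726 genes lower, and the difference under o1 was −0.01 log2 units. Rreb1 therefore differed between tissues through a higher level with E2 in aorta, beside a liver level that moved by less than its SE.

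**Figure D2:**
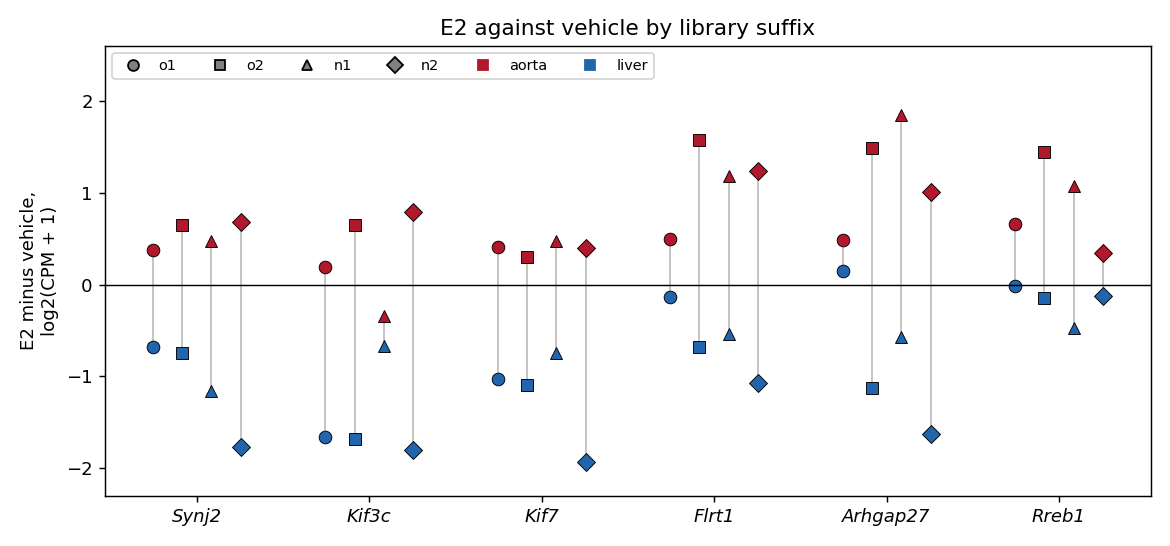
E2 minus vehicle for libraries of the same suffix, as log2(CPM + 1), in aorta (red) and liver (blue), with a grey line joining the tissues. The aorta symbol is above the liver symbol in all 24 comparisons by the choice of genes; Kif3c under n1 has both below 0, and Arhgap27 under o1 has both above 0.

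Signs were thus opposed under all 4 suffixes in Synj2, Kif7, Flrt1 and Rreb1, and under 3 of 4 in Kif3c and Arhgap27. Over the 14190 genes, 7.72% were higher with E2 under every suffix in aorta, as were 5 of the 6, and 6.26% lower under every suffix in liver, as were 5 of the 6. In all, 0.592% were higher with E2 in aorta and lower in liver under every suffix, and by the fits 28.7% of the 11118 genes tested in both tissues were above 0 in aorta and below 0 in liver. Since the genes were chosen on these differences, nothing is read from these shares. The fitted difference between the tissues' E2 effects was 1.62 ± 0.41 for Synj2, 1.94 ± 0.52 for Kif3c, 1.86 ± 0.70 for Kif7, 2.04 ± 0.85 for Flrt1, 2.32 ± 0.94 for Arhgap27 and 1.08 ± 0.46 for Rreb1 (log2, SE). That fit used the same batch effect in both tissues. With library batch within each tissue, a setting added after the data were seen, the values were 1.61 ± 0.34, 1.89 ± 0.49, 1.83 ± 0.49, 2.17 ± 0.47, 2.47 ± 0.54 and 1.10 ± 0.28 in the same order. Across the whole table no gene passed an adjusted p of 0.05 for this difference or for E2 in either tissue (0% called in each). Unadjusted p was under 0.05 for 383 genes for the difference, 495 in aorta and 502 in liver (edgeR), and DESeq2 called 24 genes in aorta, 0 in liver and 0 for the difference. With the suffix as a replicate block edgeR called 12 genes in aorta (0.0876%). Whether calls for E2 in any setting fell on the 6 genes is not counted, since they were chosen on these effects.

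Flrt1, Arhgap27 and Rreb1 had the larger aorta effects, at 0.89 to 1.52, and Synj2, Kif3c and Kif7 the larger liver effects, at −1.62 to −1.10. Over the 8 differences between an E2 and a vehicle library (4 per tissue), the genes followed each other with Pearson r from 0.68, for Kif3c with Rreb1, to 0.96, for Flrt1 with Arhgap27. These differences share their libraries and the choice of genes, so r is a description. Of 11638 other genes with a mean of at least 1 CPM in each tissue, Capn1 was most like the median of the 6, at r = 0.98, followed by Galnt15 and Dcp1a at 0.97 and by Elk3 and Gabbr1 at 0.96. Galnt15 had an aorta effect of 0.87 ± 0.19 and a liver effect of −0.66 ± 0.52, and Elk3, which encodes an ETS-family transcription factor, 0.52 ± 0.17 and −0.51 ± 0.24. Capn1, which encodes a calpain protease, was like them in shape but near 0 in aorta, at 0.12 ± 0.19, and −0.80 ± 0.29 in liver.

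Transcript length moved with the E2 effects. Across genes, the fitted effect had a Spearman rho with transcript length of 0.23 in aorta (13105 genes) and −0.27 in liver (11224 genes). By suffix, rho was −0.12, 0.23, 0.05 and 0.28 in aorta and 0.02, 0.08, −0.22 and −0.40 in liver. Genes are not independent replicates, and these are given as descriptions. All 6 genes had long transcripts, from 4577 bases for Kif7 to 9702 for Rreb1, against a median of 3353, at percentiles 71.9 to 97.2 of the tested genes. Correcting each library for length and GC content left the difference between tissues at 1.50 ± 0.31 for Synj2, 1.71 ± 0.49 for Kif3c, 1.77 ± 0.54 for Kif7, 1.90 ± 0.66 for Flrt1, 2.26 ± 0.77 for Arhgap27 and 0.79 ± 0.34 for Rreb1. With that correction the liver effect of Rreb1 was 0.02 ± 0.21, no longer below 0.

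**Figure D3:**
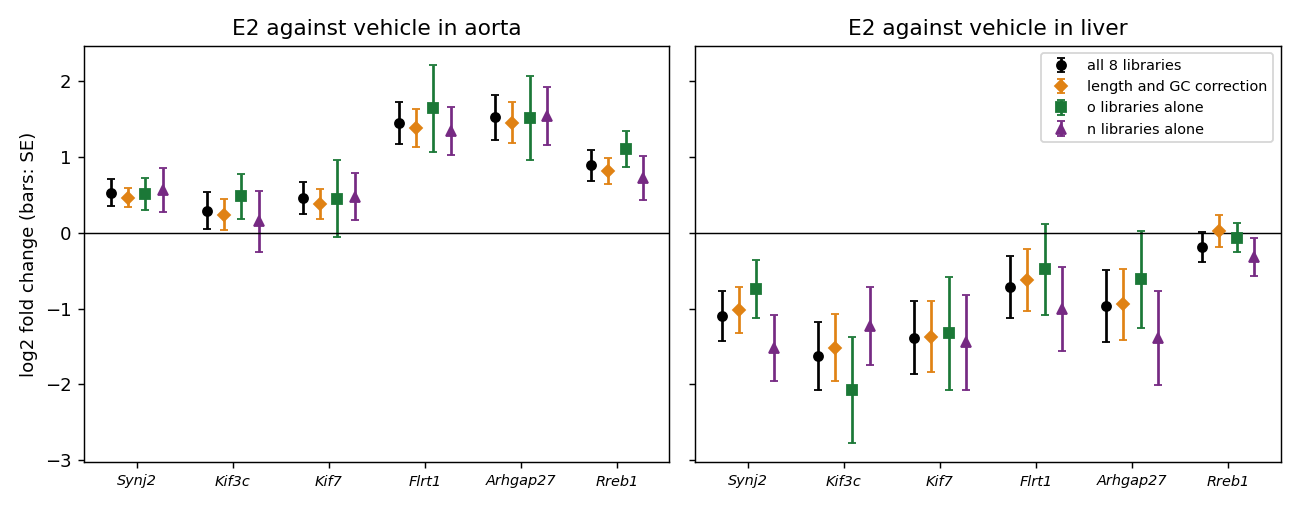
Fitted log2 effect of E2 in aorta (left) and liver (right) with its SE, for all 8 libraries of a tissue, with correction for transcript length and GC content, and for the o or n libraries alone. Every aorta value is above 0 and every liver value below 0 except that of Rreb1 with the correction, at 0.02.

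The level of the genes in the tissues themselves, averaged over both treatments, is not the contrast that chose them, and it was tested. The average holds the same E2 and vehicle libraries, so with low or uneven counts it is not fully separate from that choice. Synj2 was 4.38 ± 0.23 log2 units higher in aorta than in liver (adjusted p = 2.61e-11, quasi-likelihood F test in edgeR, Benjamini-Hochberg adjusted, 16 libraries) and higher in every aorta library than in any liver library. Kif3c was higher in aorta by 1.60 ± 0.26 (adjusted p = 3.85e-05). Rreb1 was lower in aorta, at −1.24 ± 0.24 (adjusted p = 0.000178). By an adjusted p under 0.05 and an absolute log2 difference over 1, 3 of the 6 genes were called, against 54.9% of all 14190 genes, with 28.4% higher and 26.6% lower in aorta. With library totals as the only scaling 5964 genes were higher and 2501 lower, in place of 4025 and 3772. In the vehicle libraries alone the difference was smaller for Kif3c, at 0.61 ± 0.37, and Rreb1 stood at −1.82 ± 0.33. Vehicle values enter the E2 differences that chose the genes, so these values are descriptions and no test is read from them. The call of Rreb1 was lost only through the cut of 1 on absolute log2 in the n libraries alone, at −0.83 (adjusted p = 0.0036). The same held without the suffix o1, at −0.78 (0.0045), and without the aorta E2 library o1, at −0.97 (0.00123). With library totals as the only scaling Rreb1 stood at −0.63 (adjusted p = 0.0567) and was not called, where the median of all genes moved by 0.63.

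Kif7, Flrt1 and Arhgap27 were not called over the 16 libraries, at 0.64 ± 0.36 (adjusted p = 0.126), −0.02 ± 0.44 (0.975) and 0.29 ± 0.51 (0.626), and the o and n libraries gave opposite signs. In the o libraries alone aorta was below liver, by −0.35 ± 0.40 for Kif7, −1.45 ± 0.48 for Flrt1 and −1.29 ± 0.45 for Arhgap27. In the n libraries alone aorta was above liver, by 1.51 ± 0.34, 1.26 ± 0.27 and 1.81 ± 0.32. In the vehicle libraries alone the values were −0.30 ± 0.49, −1.13 ± 0.59 and −0.90 ± 0.63, descriptions only for the reason given above. Kif7 was called as higher in aorta with library totals as the only scaling, at 1.27 (adjusted p = 0.0131), and without the suffix o1, at 1.08 (adjusted p = 0.0345).

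The difference between n and o libraries was tested in aorta and in liver by a fit that also held treatment. In aorta Kif7 was higher in the n libraries by 1.67 ± 0.24 (adjusted p = 7.60e-05), Flrt1 by 1.87 ± 0.31 (0.000243) and Arhgap27 by 2.00 ± 0.31 (0.000142). Synj2, at −0.69 ± 0.24 (adjusted p = 0.0217), missed only the cut of 1 on absolute log2. Kif3c and Rreb1 were not called either, at 0.47 and 0.20. With library totals as the only scaling, which moved the median of all genes by 0.76, Synj2, Kif3c and Rreb1 stood at 0.08, 1.24 (adjusted p = 0.00106, called) and 0.98. Leaving out 1 library gave 0.18 to 0.68 for Kif3c and 0.04 to 0.51 for Rreb1. There 61.0% of 13698 genes were called, 33.0% as higher and 28.1% as lower. With library totals as the only scaling 6402 were higher and 2237 lower, in place of 4514 and 3846. In liver 69.5% of 11726 genes were called, 33.7% as higher and 35.7% as lower, among them Synj2, lower in the n libraries at −1.04 ± 0.34 (adjusted p = 0.00936), and Arhgap27, at −1.16 ± 0.49 (0.0407). The call of Synj2 was lost without the liver E2 library n2, at −0.84, or o2, at −0.98, with DESeq2's size factors, at −0.98, by DESeq2, at −0.97, and with library totals, at −0.77. That of Arhgap27 when any of the vehicle libraries o2, n1 and n2 or the E2 libraries o1, n1 and n2 was left out, at −1.34 to −0.84, and with library totals, at −0.86. Kif7 and Flrt1 had −0.27 ± 0.50 (0.02 with library totals) and −0.96 ± 0.48 there. Rreb1 in liver, at −0.80 ± 0.24 (adjusted p = 0.00653), missed only the cut of 1, and stood at −0.50 with library totals. Kif3c in liver stood at 0.37 ± 0.45 (adjusted p = 0.463). The difference of these differences, a contrast chosen after the values were seen, was 3.17 ± 0.55 for Arhgap27 (adjusted p = 0.000705), 2.86 ± 0.55 for Flrt1 (0.00131), 1.94 ± 0.51 for Kif7 (0.00892) and 1.04 ± 0.35 for Rreb1 (0.0308). It was 0.37 ± 0.37 for Synj2 (0.464) and 0.13 ± 0.49 for Kif3c (0.867), neither called, against a median of 0.41 over all genes. It was called for 27.8% of genes, 2666 of them higher (18.8%) and 1272 lower (8.96%), or 1880 and 1788 with DESeq2's size factors. The first 3 genes were called in all 21 settings and Rreb1 in 9.

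**Figure D4:**
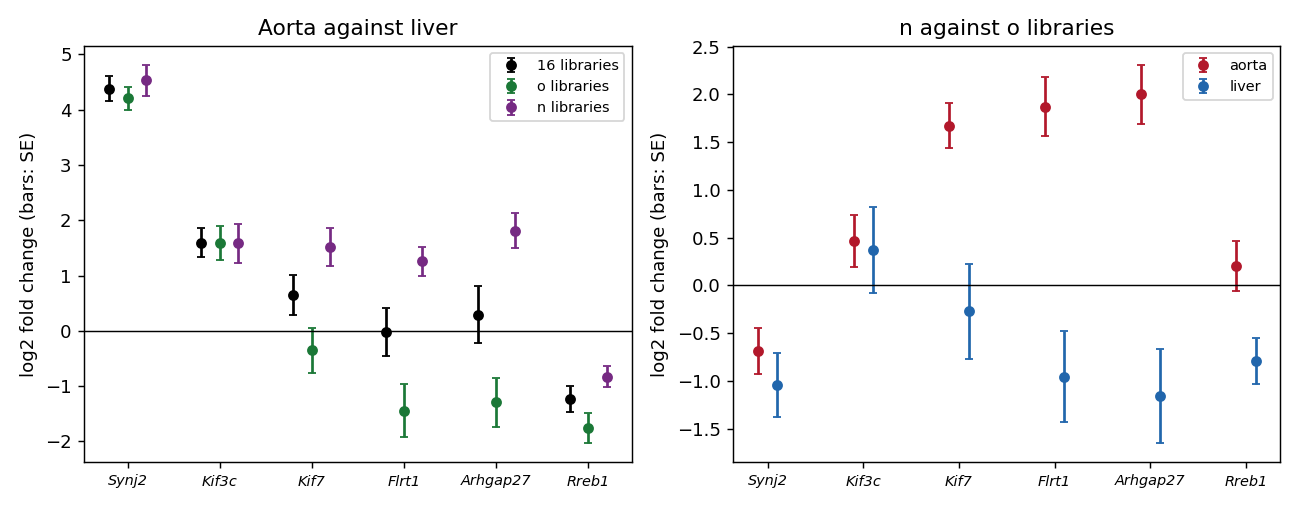
Log2 difference with its SE for each gene between aorta and liver (left; all 16 libraries, o alone and n alone) and between n and o libraries in each tissue (right). Kif7, Flrt1 and Arhgap27 change sign between o and n libraries on the left, and are 1.67 to 2.00 higher in n libraries of aorta on the right.

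The relatives of the 6 genes are described by counts and medians. Of the kinesins besides Kif3c and Kif7, 14 of 32 were higher with E2 in aorta (median −0.05, against −0.01 over all genes) and 7 of 28 in liver (median −0.17, against −0.01). Kif3a and Kif3b, the other heavy chains of the motor family to which Kif3c belongs, stood at −0.05 ± 0.17 and 0.15 ± 0.17 in aorta and at 0.07 ± 0.22 and −0.13 ± 0.27 in liver. Kifap3, the cargo adaptor, stood at 0.21 ± 0.19 and −0.18 ± 0.35. None of the 5 lists described here had a gene called for E2 in either tissue.

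Of the Hedgehog genes besides Kif7, 10 of 20 were higher in aorta and 12 of 15 lower in liver, with a liver median of −0.64. Sufu, which restrains the Gli transcription factors, stood at 0.35 ± 0.28 in aorta and −1.12 ± 0.58 in liver. The receptor gene Ptch1 stood at −0.09 ± 0.27 and −0.30 ± 0.27, and Gli3 at −0.07 ± 0.27 and −0.25 ± 0.48. Gli1 and Gli2 had too few counts to be fitted in liver, and in aorta stood at −0.23 ± 0.24 and −0.05 ± 0.23.

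Of the phosphoinositide phosphatases besides Synj2, 20 of 24 were higher with E2 in aorta, with a median of 0.07, and 20 of 23 lower in liver, with a median of −0.29. Synj1, the closest relative of Synj2, stood at 0.04 ± 0.19 in aorta and −0.29 ± 0.27 in liver. Among the proteins related to Flrt1 and their receptors 6 of 13 were higher in aorta and 7 of 12 lower in liver. Flrt2 and Flrt3 stood at −0.23 ± 0.26 and −0.46 ± 0.30 in aorta, away from Flrt1, and at 0.61 ± 0.74 and −0.67 ± 0.69 in liver. The Ras-ERK feedback and target genes besides Rreb1 were higher in 6 of 17 cases in aorta and lower in 8 of 16 in liver.

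**Figure D5:**
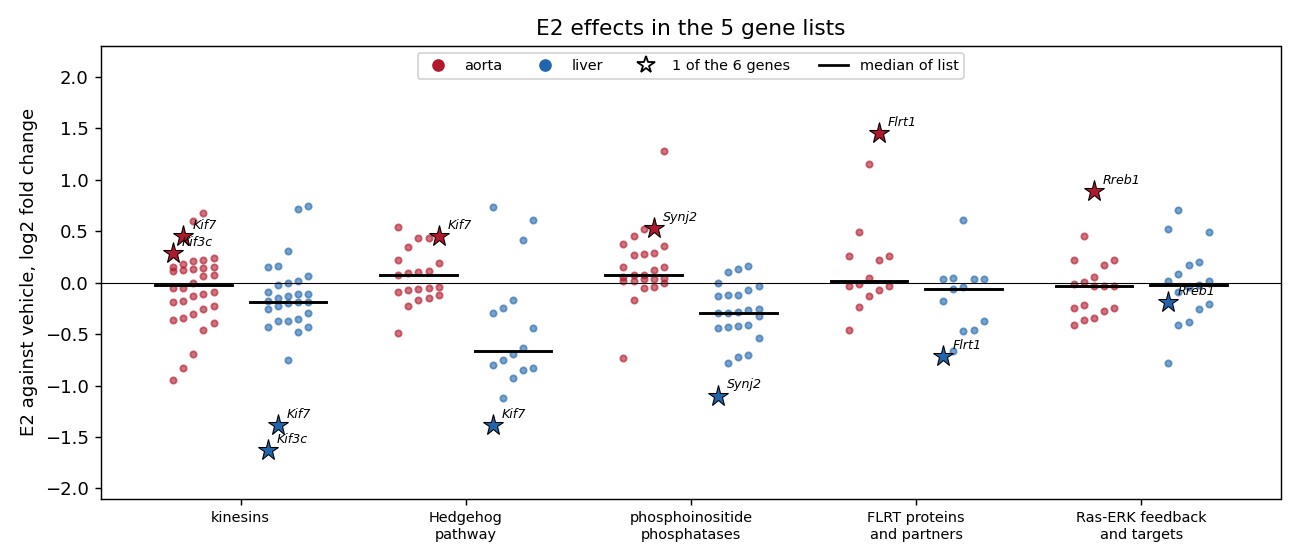
Fitted log2 effect of E2 for each tested gene of 5 lists, in aorta (red) and liver (blue), with stars for the members Synj2, Kif3c, Kif7, Flrt1 and Rreb1 and a line at each list's median, members included. The stars of Flrt1 and Rreb1 lie above the other genes of their lists in aorta, and no gene was called.

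Between the tissues, genes of these lists were called, as were 54.9% of all 14190 genes. Called higher and lower in aorta were 8 and 10 of 37 kinesins, 7 and 3 of 21 Hedgehog genes, and 5 and 2 of 24 phosphoinositide phosphatases. For the FLRT list the counts were 5 and 3 of 15, and for the Ras-ERK list 11 and 5 of 18. The genes named next had the smallest p of their list in 1 direction. Gli2 was higher in aorta by 4.51 ± 0.38 (adjusted p = 1.65e-08), Fgfr1, a receptor that FLRT proteins bind, by 4.65 ± 0.23 (1.28e-11), and Fosl1, an AP-1 subunit downstream of ERK, by 4.56 ± 0.30 (6.26e-10). Fgfr4, the fibroblast growth factor receptor of hepatocytes, was lower in aorta at −8.64 ± 0.40 (6.32e-12), and Kif12 at −8.11 ± 0.75 (4.56e-08). Synj2 was the phosphoinositide phosphatase with the smallest p for a higher level in aorta.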

How the data were processed

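The authors deposited 1 table of read counts per gene symbol for 16 libraries. The submitters' processing notes name Bowtie 0.12.5, HTSeq 0.4.5p7, edgeR 3.4.2 and the build mm9. Sources used here do not give the annotation or the strand setting. As deposited, the values count as estimated counts, because each column ends with a percentage, but all gene values were whole. Lines that name no gene (8) were left out; counts on genes were 24.7% to 51.6% of a library's reads.

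Counts were tested with edgeR 4.0.16 (R 4.3.3, quasi-likelihood, TMM, filterByExpr with a minimum count of 10 and a total of 15, Benjamini-Hochberg adjustment), with a library batch of 3 levels (o1, o2, n) as covariate, on the assumption that the letter marks the library type. SE is the absolute log2 difference over the root of F. CPM use TMM sizes over all 16 libraries. Other settings were DESeq2 1.42.0 and its size factors, library totals, no filter, no batch, the suffix as a block, o or n libraries alone, each library or suffix left out, and correction for length and GC with mgcv 1.9.3. The scripts were tested on simulated data.

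The 6 genes and the gene lists were chosen with earlier results of these data known. Named besides the 6 genes are fixed relatives (1 list and its relatives are not reported here), the 5 genes most like them over the suffix differences, and the genes with the smallest p between tissues in each list. Vehicle and E2 libraries of a suffix deviated together (r from 0.84 to 0.93), mostly through the o and n difference. With the letter's mean removed, r was 0.50 (o) and 0.43 (n) in aorta and 0.25 and −0.05 in liver, and no label states a pairing.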

Additional observations from a re-analysis of the deposited data

Results flagged for a closer look

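Kif3c had 1 library far from the other 3 in a pair of groups: 23.9 CPM in the aorta vehicle library n1, and 5.74 CPM in the liver E2 library n1. Among 24 groups of 4 libraries, the criterion (Dixon's, at the 95% level) picks about 1 in 20 by chance, and each group holds both o and n libraries. Without the liver E2 library n1 the liver effect of Kif3c was −2.16 in place of −1.62.

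In 4 of the 6 genes every suffix moved one way in aorta and the other way in liver, with a fitted difference of 1.62 for Synj2, 1.86 for Kif7, 2.04 for Flrt1 and 1.08 for Rreb1. For Rreb1 the liver part was slight: −0.01 log2 units under o1, a fitted effect of −0.19 ± 0.19, and 0.02 ± 0.21 with the length and GC correction. Over all 14190 genes, 0.592% were higher with E2 in aorta and lower in liver under every suffix. The genes were chosen on an aorta effect above the liver effect, so for these genes the difference was not tested and nothing is read from that share.

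The n minus o difference was larger in aorta than in liver for Arhgap27, by 3.17, for Flrt1, by 2.86, for Kif7, by 1.94, and for Rreb1, by 1.04, by the tested contrast that was added after the values were seen. Synj2, at 0.37, and Kif3c, at 0.13, were not called. Over all 14190 genes 27.8% were called, 18.8% as higher, and the median was 0.41. Rreb1 was called in only 9 of 21 settings.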

How the results depend on the processing

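No gene of the table was called for E2 in liver or for the difference between tissues, and none in aorta, in the fits reported. In aorta DESeq2 called 24 genes, the replicate block 12, the o libraries alone 33 and the length and GC correction with the replicate block 18. In liver no filter on low counts gave 6 calls, the o libraries alone 5 and the n libraries alone 1. The causes were not tested. Leaving out libraries or suffixes gave 0 to 35 calls in aorta (17 without the vehicle library n2, 11 without suffix n1, 35 without suffix n2), 0 to 1 in liver and 0 to 0 for the difference between tissues. It gave 6812 to 8213 for aorta against liver, 8042 to 8463 and 8061 to 8323 for n against o libraries in aorta and liver, and 2891 to 4540 for the difference between these. The replicate block changed no call of the 6 genes in aorta against liver. With library totals as the only scaling the calls for aorta against liver split 5964 higher and 2501 lower (4025 and 3772 with TMM), those for n against o libraries in aorta 6402 and 2237 (4514 and 3846), and those for the difference of differences 4345 and 659, and the median of all genes moved by 0.63, 0.76 and 0.46. That scaling also moved the median E2 effect by −0.20 in liver and the median difference between tissues by 0.16. Aorta against liver reversed for Arhgap27 in the o libraries alone, at −1.29, and for Flrt1 in the n libraries alone, at 1.26; the cause was not tested. The sign of the difference between tissues in the E2 effect follows from the choice of genes and is no measure of stability. Counts were low in liver, where the E2 library n2 had 2 counts of Kif7, 3 of Arhgap27, 5 of Kif3c, 6 of Flrt1 and 9 of Synj2.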
